A study of Mus musculus with 3 samples.

Results

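Among the hormone-responsive luminal cells of the mouse mammary gland, 276 carried at least 2 of the transcripts Calca, Tnfsf11 and Wnt4, out of 2824 hormone-responsive cells (9.77%) and 26320 cells in all. Cells were taken when they had 500 or more detected genes and under 10% mitochondrial UMIs (unique molecular identifiers, which mark single captured transcript molecules). A cell counted as hormone-responsive when its UMIs of Prlr, Areg, Pgr, Esr1 and Cited1 came to at least 5, and to at least 3 times both the UMIs of the basal genes Krt5, Krt14, Krt17 and Acta2 and those of the luminal progenitor genes Csn3, Elf5, Kit and Aldh1a3. The 276 cells, called members here, numbered 7 in library 1, 168 in library 2 and 101 in library 3. They were set against the hormone-responsive cells of the same library in which none of the 3 transcripts was detected, 148, 474 and 576 cells. The remaining 1350 hormone-responsive cells had exactly 1 of the 3 genes, and 1242 of these had Wnt4 alone.

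The cells came from number 4 mammary glands of female FVB/NJ mice, 10 weeks old, with no treatment and no transgene named in the labels. Glands of 4 mice were pooled, dissociated with collagenase and trypsin, and live epithelial cells were sorted after staining for EpCAM and CD49f and for the endothelial, leukocyte and red-cell antigens CD31, CD45 and Ter119. The 3 droplet libraries form 1 group. The labels leave unsaid if 1 pool or several supplied them. With the library as a block, each p-value rests on how the difference between members and comparison cells varies among libraries. That spread could be technical, and its estimate for a gene also draws on the other genes. Members and their comparison cells come from the same libraries and are told apart by detected transcripts alone.

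Progesterone acts in the mammary gland on luminal cells that carry its receptor, and these cells pass the signal to their neighbours through secreted and membrane-bound proteins. Tnfsf11 encodes RANKL, which binds the receptor RANK (Tnfrsf11a) on luminal progenitor and basal cells and drives their division, and Wnt4 encodes a Wnt ligand that acts in side-branching. Both are known progesterone targets in mouse mammary epithelium. Calca encodes calcitonin and, by alternative splicing, the calcitonin gene-related peptide CGRP; calcitonin is known to rise in the mammary gland under progesterone. A 3' count of Calca does not tell these products apart here.

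Calca lies on chromosome 7 (114631478 to 114636357, minus strand), Tnfsf11 on chromosome 14 (78277445 to 78308043, minus strand) and Wnt4 on chromosome 4 (137277489 to 137299726, plus strand) in GENCODE M21 on GRCm38, the assembly also known as mm10. The bases just before their starts are shown because the 3 genes make up the member rule. They are from RefSeq on GRCm38.p6, 5′ to 3′ on the strand of the gene, and the capitals mark the letters TGACG, which form one side of the element bound by the cAMP-responsive factor CREB.
Calca, chr7:114636358-114636607, minus strand: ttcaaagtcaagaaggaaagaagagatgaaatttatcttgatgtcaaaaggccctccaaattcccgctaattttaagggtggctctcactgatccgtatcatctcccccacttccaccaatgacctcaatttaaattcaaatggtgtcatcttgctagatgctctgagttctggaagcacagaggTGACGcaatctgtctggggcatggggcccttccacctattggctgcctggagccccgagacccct
Tnfsf11, chr14:78308044-78308293, minus strand: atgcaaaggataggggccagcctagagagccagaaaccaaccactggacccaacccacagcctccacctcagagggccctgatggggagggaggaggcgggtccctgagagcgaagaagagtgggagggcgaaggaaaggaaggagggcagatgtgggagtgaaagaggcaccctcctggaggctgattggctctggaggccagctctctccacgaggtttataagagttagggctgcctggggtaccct
Wnt4, chr4:137277385-137277488, plus strand: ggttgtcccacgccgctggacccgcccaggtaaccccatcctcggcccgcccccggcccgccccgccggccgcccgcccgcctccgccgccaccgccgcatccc
In windows of 300 bases around the starts, Calca had 1 match to TGACG or its reverse complement CGTCA, and Tnfsf11 and Wnt4 had 0. The windows are not placed alike: that of Wnt4 has 104 bases before the start given above, those of Calca and Tnfsf11 250. Of 32544 promoters of that length, 20.9% held one. The progesterone receptor half-site AGAACA (reverse complement TGTTCT), held by 18.9% of all promoters, and the STAT5 motif TTCNNNGAA, held by 8.33%, had 0 matches in the windows of the 3 genes. The motifs do not overlap one another in these windows, and a match is a string of letters and not a measured binding site.

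The hormone-responsive label was checked against markers, of which Foxa1, Ly6a and Prom1 are not in the rule. Foxa1, a lineage factor of hormone-responsive cells, stood at 270, 316 and 422 CPM (UMIs of the gene per 1000000 UMIs of a sum over cells) in members of libraries 1, 2 and 3, against 430, 438 and 419 CPM in cells with none of the 3 genes, and at no more than 8.92 CPM in basal or luminal progenitor cells. The summed level of 8 hormone-responsive markers, 5 of them in the rule, was 7372, 6989 and 7604 CPM in members and 7442, 7688 and 7300 CPM in cells with none. The 10 basal markers summed to 225, 513 and 439 CPM in members and 196, 550 and 350 CPM in cells with none, with Krt5, Krt14, Mylk, Oxtr, Trp63 and Cnn1 at 0 in the members of library 1. The 10 luminal progenitor markers summed to 449.5, 836 and 670.2 CPM in members and 768, 751 and 854 CPM in cells with none. Of 7 immune markers, 0, 1 and 0 had a UMI in members of the 3 libraries, and their sum stayed at or below 6.84 CPM. Of 6 endothelial markers 0, 1 and 2 had a UMI, and of 7 fibroblast markers 0, 6 and 4, with endothelial sums of at most 10.0 CPM. The fibroblast sums were 0, 75.3 and 186 CPM in members and 208, 162 and 174 CPM in cells with none, and the sums of 6 pericyte markers were 45.0, 126 and 67.8 CPM in members and 56.0, 90.4 and 122 CPM in cells with none. Schwann, adipocyte and skin keratinocyte lists summed to at most 17.6, 2.74 and 58.9 CPM in members. Both groups were chosen on 5 of the 8 hormone-responsive markers, so the closeness of that sum was largely set by the rule. The basal and luminal progenitor sums also include the genes of those classes that the rule held low. Outside the rule, mean levels over the libraries in members and in cells with none were 336 and 429 CPM for Foxa1. They were 419 and 424 CPM for Ly6a and 189 and 235 CPM for Prom1. Immune and endothelial markers were at or near 0 in members.

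Members were deeper than the cells they were compared with. Their median was 2730, 4384.5 and 3742 UMIs per cell, against 2513.5, 3621 and 2938.5 in cells with none. The median mitochondrial share was 6.80%, 1.95% and 1.74% in members and 4.69%, 1.85% and 2.06% in cells with none. The 7 members of library 1 held 22245 UMIs in sum, so that 1 UMI there weighed 45.0 CPM and a count of 0 allows up to 135 CPM. The members of libraries 2 and 3 held 730479 and 398366 UMIs. Between 77 and 146 barcodes were present in a pair of libraries, 0 of them hormone-responsive in both and 3, 1 and 3 members had a barcode that also stood in another table of the pairs 1 and 2, 1 and 3, and 2 and 3.

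The share of hormone-responsive cells that were members differed between the libraries by more than counting error. It was 1.85% in library 1 (7 of 379; 95% Wilson interval 0.897 to 3.76), 16.1% in library 2 (168 of 1043; 14.0 to 18.5) and 7.20% in library 3 (101 of 1402; 5.96 to 8.68). Intervals and limits given here cover counting error only. After every cell was thinned to 2000 UMIs, which left out 75, 187 and 271 shallower hormone-responsive cells, 1, 13 and 5 of them members, the share was 0.351% (1 of 285), 14.4% (119 of 824) and 4.17% (45 of 1079). Library 2 stood highest both ways. These values come from the rule that chose the cells and were given no test.

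The libraries also differed in which of the 3 transcripts the members had. Of the 168 members of library 2, 104 had all 3 genes, 38 had Calca and Wnt4, 18 had Tnfsf11 and Wnt4, and 8 had Calca and Tnfsf11. Of the 101 members of library 3, 8 had all 3 genes, 76 had Calca and Wnt4, 14 had Tnfsf11 and Wnt4, and 3 had Calca and Tnfsf11. Library 1 had 6 members with Tnfsf11 and Wnt4, 1 with Calca and Wnt4 and none with all 3. Cells just inside the rule, with exactly 2 genes, numbered 164 at a median of 3794.5 UMIs, and those just outside it, with 1 gene, had a median of 3651 UMIs; cells with all 3 genes had a median of 4670 UMIs. On the other threshold of the rule, 0 members had just 5 UMIs of the 5 hormone-responsive genes, and their median was 23 UMIs against 17 in cells with none.

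**Figure D1:**
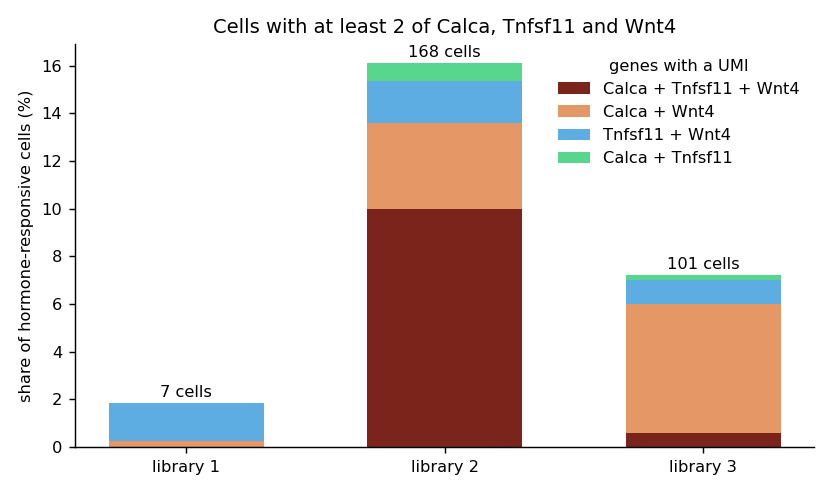
Stacked bars give the percentage of hormone-responsive cells in each library that had each combination of at least 2 of Calca, Tnfsf11 and Wnt4, with the number of members above the bar. Cells with all 3 genes make up most of the bar of library 2, and cells with Calca and Wnt4 most of the bar of library 3.

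Calca, the calcitonin and CGRP gene, was detected in 1.06%, 17.3% and 10.9% of all hormone-responsive cells of libraries 1, 2 and 3. In luminal progenitor cells, which serve as the level that free RNA can give, it was detected in 0 of 3222 cells in library 1 (which allows up to 0.0931%), in 2.80% in library 2 and in 0.369% in library 3. Median depths of the hormone-responsive cells were 3330, 3811 and 3302.5 UMIs, and those of the luminal progenitor cells 2855, 3738.5 and 3355 UMIs. In basal cells the share was 0 of 1681 in library 1, 2.01% in library 2 and 0.135% in library 3. The Calca share of hormone-responsive cells lay above both other classes in each library, while UMIs in cells of other classes were most frequent in library 2, where Calca was highest.

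The members of library 2 had far more Calca UMIs per cell than those of library 3. Their median was 9 UMIs with a highest value of 98, against a median of 1 and a highest value of 26 in library 3. At least 5 Calca UMIs were present in 106 of 168 members of library 2 and in 13 of 101 members of library 3, and exactly 1 in 24 and 37 members. The level over all members was 45.0 CPM in library 1 (1 UMI), 3394 CPM in library 2 (2479 UMIs) and 613 CPM in library 3 (244 UMIs). A member of library 3 was thus often assigned on a single Calca UMI, whereas most members of library 2 held several.

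**Figure D2:**
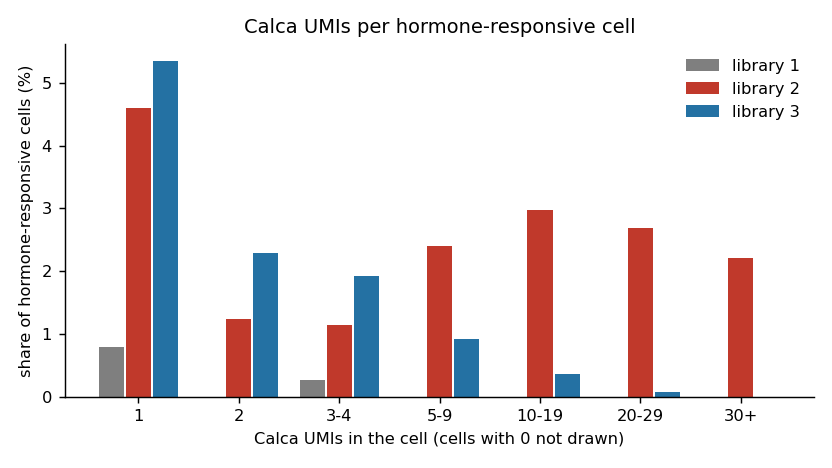
Bars give the percentage of hormone-responsive cells in each library by the number of Calca UMIs in the cell; cells with 0 are not drawn. Bins widen to the right. The cells drawn at 5 UMIs and above include 106 members of library 2 and 13 of library 3, beside cells that are not members.

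Tnfsf11, the RANKL gene, was the rarest of the 3 in libraries 2 and 3. It was detected in 1.85%, 12.7% and 2.21% of hormone-responsive cells, against 0 of 3222, 0.311% and 0.0308% of luminal progenitor cells. Its level in members was 315 CPM in library 1 (7 UMIs), 654 CPM in library 2 (478 UMIs) and 67.8 CPM in library 3 (27 UMIs). In library 2, 35 members held 5 or more Tnfsf11 UMIs, and in library 3 none held over 2. Wnt4 was by contrast a common transcript of the class, detected in 59.9%, 50.7% and 53.6% of hormone-responsive cells and in 2.36%, 6.09% and 5.51% of luminal progenitor cells. Its level in members was 360, 895 and 482 CPM.

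Calca and Tnfsf11 were found in the same cells of library 2. Both were detected in 112 hormone-responsive cells of that library, where their separate shares would give 22.8 if the genes were detected independently, a ratio of 4.92. After thinning to 2000 UMIs the number was 87 where 16.6 would be given. In library 3 both were detected in 11 cells where 3.38 would be given. Calca and Wnt4 were detected together in 142 cells of library 2 where 91.3 would be given, and in 84 cells of library 3 where 82.0 would be given. The ratio for Calca and Wnt4 was 1.56 in library 2 and 1.02 in library 3. The cells of a library share its depth and its free RNA, so these counts describe the libraries and were not tested.

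The 5 genes that define the hormone-responsive class were present in members, and in libraries 2 and 3 several of them stood on opposite sides of the comparison cells. Pgr, the progesterone receptor (chromosome 9), stood at 225, 215 and 349 CPM in members, against 257, 396 and 147 CPM in cells with none; members were lower in library 2 and higher in library 3. Cited1, a transcriptional co-regulator of hormone-responsive cells, stood at 1394, 2107 and 1039 CPM in members, against 1270, 1420 and 2126 CPM in cells with none, the opposite order. Areg, the amphiregulin gene and an oestrogen target that signals through the epidermal growth factor receptor, stood at 1753, 1769 and 1780 CPM in members and at 1821, 1537 and 785 CPM in cells with none. Members were alike in the 3 libraries for Areg, and it was the comparison cells of library 3 that were low. Prlr, the prolactin receptor, stood at 2787, 2123 and 3216 CPM in members, against 2650, 3200 and 3144 CPM in cells with none. Esr1, the oestrogen receptor, stood at 89.9, 131 and 153 CPM in members, against 140, 121 and 149 CPM in cells with none. These genes are part of the rule and were not tested.

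Over the genes outside the rule, members differed from cells with none in a small number of transcripts. Of 6842 genes tested, 20 were higher in members (0.292%) and 18 lower (0.263%), together 0.555%, at an adjusted p below 0.05 (edgeR quasi-likelihood test on UMIs summed per library, library as block, Benjamini-Hochberg adjustment). Before adjustment, 360 genes had a p below 0.05. The median log2 fold change over all genes was -0.09. By CPM scaled by total counts, all 38 called genes had the same direction in libraries 2 and 3, and 29 had it in library 1 too. In the fit, library 1 had TMM normalization factors of 1.44 for members and 0.927 for cells with none. On that scale the members of library 1 stand lower. Myb and P4ha2, higher there by CPM, are then lower than in cells with none. Of the 38, 14 had 0 UMIs in the 7 members of library 1. The genes were called on these same sums, so a shared direction, here or with a library left out, is no separate support. In 34 of the 38, the difference was larger in library 2 than in library 3. The count depends on library 1 and on the test: without library 1 the fit called 7 genes higher and 7 lower, without the library block 2 and 1, and the DESeq2 Wald test 2 and 1. Of the 38 genes, 8 were also called without library 1, and all 38 kept their sign there. These 8 were Defb1, Fam20a, Agtr1a, Tuba1a and Marcksl1, all higher in members, and Tmprss2, Fam25c and Col8a1, all lower.

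**Figure D3:**
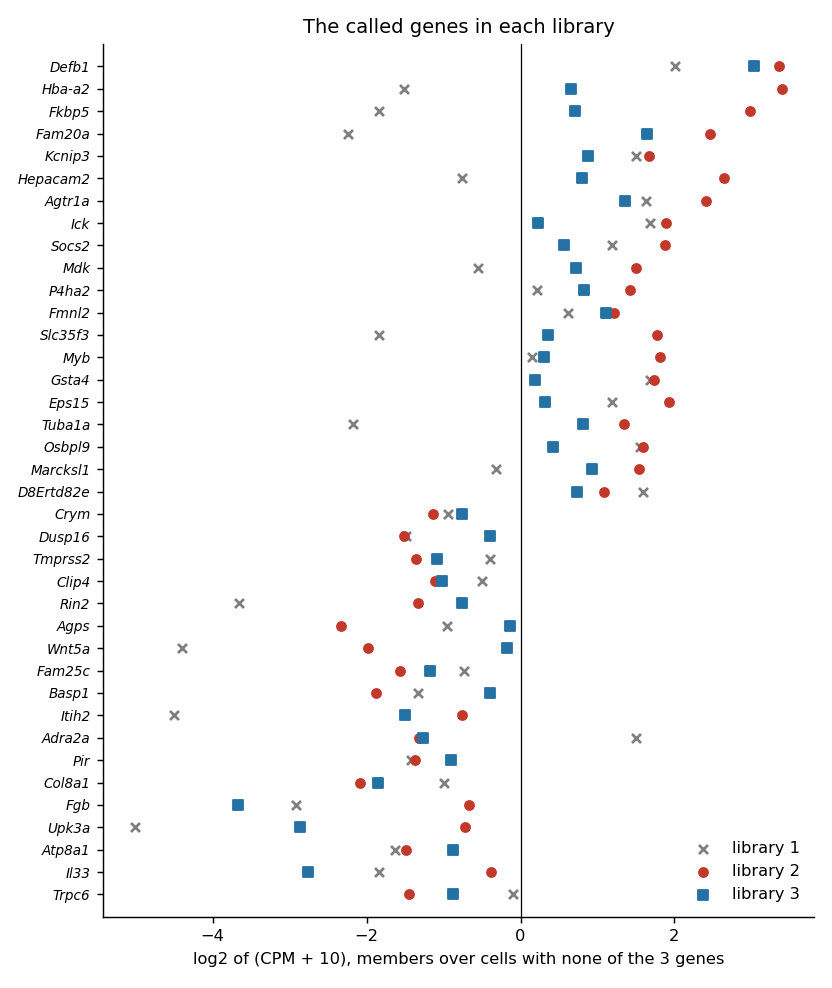
Points give, for each of the 38 called genes and each library, the log2 ratio of CPM + 10 in members over CPM + 10 in cells with none of the 3 genes; positive values are higher in members. Points of libraries 2 and 3 lie on 1 side of zero for every gene, while library 1, with 7 members, lies on the other side for 9 genes.

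Defb1, a beta-defensin with antimicrobial activity, had the largest fold change among the genes tested that rose. It stood at 405, 188 and 193 CPM in members of libraries 1, 2 and 3, against 93.4, 9.28 and 14.8 CPM in cells with none. Members were above the comparison cells in each library, with 9 UMIs in the members of library 1. The fitted log2 fold change was 3.36 ± 0.29 (SE; adjusted p = 1.5e-25), and it was called in 13 of 15 alternative analyses. In basal and luminal progenitor cells Defb1 stood at no more than 17.8 CPM. Wfdc12, a secreted protein with a whey acidic protein domain that is named after its values were seen, did not pass the low-count filter and was not tested here. It stood at 0, 880 and 27.6 CPM in members (643 UMIs in library 2), against 0, 3.09 and 3.56 CPM in cells with none, and was called higher in the fit without that filter.

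Agtr1a, the type 1 receptor for angiotensin II, stood at 405, 442 and 281 CPM in members and at 124, 74.9 and 103 CPM in cells with none. The members of each library were above its comparison cells, those of library 1 with 9 UMIs. The log2 fold change was 1.83 ± 0.29 (adjusted p = 6.1e-07), called in 12 of 15 alternatives. Agtr1a was at or below 2.98 CPM in basal and luminal progenitor cells. Fam20a, a pseudokinase that activates the secretory-pathway kinase Fam20C, is named after its values were seen. It stood at 0, 107 and 123 CPM in members, against 37.4, 11.1 and 32.6 CPM in cells with none, a log2 fold change of 2.24 ± 0.32 (adjusted p = 1.6e-08). Libraries 2 and 3 were higher in members, and the 0 of library 1 is within what 7 cells can give.

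Col8a1, a short-chain collagen, fell most among the genes that were also called without library 1. It stood at 135, 123 and 128 CPM in members, against 278, 555 and 486 CPM in cells with none. The members of libraries 2 and 3, with 90 and 51 UMIs, were close to each other and below the comparison cells. The value of library 1 was also below, but it rests on 3 UMIs, too few to place its level. The log2 fold change was -2.00 ± 0.33 (adjusted p = 1.7e-06), called in 12 of 15 alternatives. Fam25c stood at 405, 95.8 and 223 CPM in members and at 679, 304 and 516 CPM in cells with none, lower in each library, with a log2 fold change of -1.41 ± 0.32 (adjusted p = 0.0047). Tmprss2, a transmembrane serine protease named after its values were seen, stood at 719, 112 and 193 CPM in members and at 953, 303 and 421 CPM in cells with none (log2 fold change -1.21 ± 0.31, adjusted p = 0.029).

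The other genes named by the rule among those that rose were Kcnip3, a calcium-binding modulator of potassium channels and transcription (log2 fold change 2.20), the ciliary kinase Ick (1.55), the cytokine-signalling inhibitor Socs2 (1.55), the collagen prolyl hydroxylase subunit P4ha2 (1.49), the formin Fmnl2 (1.46), the transcription factor Myb (1.32), the glutathione transferase Gsta4 (1.27), the endocytic adaptor Eps15 (1.17), the lipid-binding protein Osbpl9 (1.09) and D8Ertd82e (1.01). Of these 10 genes, 0 were called without library 1, and 5 of them (Kcnip3, Socs2, P4ha2, Fmnl2 and Myb) had just 1 UMI in the members of library 1. Several differed little in library 3: Ick stood at 89.9, 82.1 and 30.1 CPM in members, against 21.0, 14.9 and 24.3 CPM in cells with none. Fmnl2 stood at 45.0, 50.7 and 57.7 CPM in members and at 25.7, 16.1 and 21.4 CPM in cells with none, a difference of like size in libraries 2 and 3.

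The other genes named by the rule among those that fell were the cation channel Trpc6 (log2 fold change -2.55), the alarmin cytokine Il33 (-2.20), the phospholipid flippase Atp8a1 (-2.11), the uroplakin Upk3a (-2.08), the fibrinogen chain Fgb (-2.03), Pir (-1.76), the hyaluronan-binding Itih2 (-1.50), Basp1 (-1.45), Wnt5a (-1.34) and Agps, an enzyme of ether lipid synthesis (-1.30). Of these 10 genes too, 0 were called without library 1. In the members of library 1, Trpc6, Pir and Basp1 had 1 UMI, and Il33, Atp8a1 and Fgb had 0 where the comparison cells stood at 25.7, 21.0 and 65.4 CPM, below the 135 CPM that a count of 0 allows, so their direction rests on libraries 2 and 3. They did not follow 1 pattern over the libraries. Upk3a stood at 0, 50.7 and 37.7 CPM in members and at 311, 90.4 and 338 CPM in cells with none, so that the difference was larger in library 3 than in library 2. Fgb stood at 0, 86.2 and 15.1 CPM in members, against 65.4, 144 and 309 CPM in cells with none, again larger in library 3. Agps stood at 135, 141 and 449 CPM in members and at 271, 753 and 493 CPM in cells with none, and was close to the comparison cells in library 3.

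Called genes outside the naming rule, listed after their values were seen, were Hba-a2 (2.91), Hepacam2 (2.17), the heparin-binding growth factor Mdk (1.54), Slc35f3 (1.39), the tubulin Tuba1a (1.11) and Marcksl1 (1.07) among those that rose. Those that fell were the alpha-2A adrenergic receptor Adra2a (-1.60), the Rab5 exchange factor Rin2 (-1.25), Clip4 (-1.22), the phosphatase Dusp16 (-1.18) and the thyroid hormone-binding Crym (-1.10). Crym stood at 89.9, 71.2 and 80.3 CPM in members, against 182, 169 and 142 CPM in cells with none. The library 1 value of members is 2 UMIs, so the difference is read from libraries 2 and 3. Marcksl1 stood at 89.9, 355 and 228 CPM in members and at 114, 115 and 116 CPM in cells with none; Tuba1a stood at 0, 138 and 128 CPM in members and at 35.0, 48.3 and 68.8 CPM in cells with none.

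Of 16 further genes listed as progesterone-responsive, 10 could be tested, and 1 was called higher and 0 lower. Over all genes tested the share called was 0.555% (38 of 6842). At that share most lists of this size would give 0 calls, so the counts of calls are not read as results about the lists. The median log2 fold change of the 10 was -0.31, beside -0.09 over all genes, and 3 had an unadjusted edgeR p below 0.05. The called gene was Fkbp5, a co-chaperone of steroid receptors whose transcription is induced by progesterone and glucocorticoids. It stood at 0, 123 and 27.6 CPM in members, against 25.7, 6.81 and 13.1 CPM in cells with none, a log2 fold change of 2.51 ± 0.41 (adjusted p = 1.7e-06). Library 2 carried most of this difference: the log2 fold change was 0.85 without library 2 and 2.83 without library 1, and neither was called. Zbtb16, a zinc-finger repressor with the same inducers, stood at 135, 153 and 17.6 CPM in members and at 107, 9.90 and 19.0 CPM in cells with none, and was not called (1.87 ± 0.98, adjusted p = 0.999). It was high in members of library 2 and not in those of library 3. Sgk1, a kinase, had a log2 fold change of -0.56 ± 0.30 and the G1 cyclin Ccnd1 one of -0.29 ± 0.29, neither called. Cxcl12 and Id4 were among the 6 listed genes too low to test, and Ihh was listed at 0 UMIs in members of the 3 libraries.

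Prolactin and JAK-STAT genes gave 1 call among 11 tested, beside 0.555% called over all genes tested. Their median was -0.30, and 2 had an unadjusted edgeR p below 0.05. Socs2, which is induced by STAT5 and damps growth hormone and prolactin signalling, stood at 45.0, 156 and 50.2 CPM in members, against 14.0, 35.3 and 30.9 CPM in cells with none (log2 fold change 1.55 ± 0.32, adjusted p = 0.0014). Members were higher in each library, most so in library 2; the log2 fold change was 0.77 without library 2 and 1.57 without library 1, and neither was called. Cish, another STAT5 target, stood at 0, 61.6 and 50.2 CPM in members and at 21.0, 42.1 and 51.0 CPM in cells with none and was not called. Of 10 oestrogen-responsive genes tested, with a median of -0.02 and 3 at an unadjusted edgeR p below 0.05, Myb was the 1 called, higher. It stood at 45.0, 105 and 37.7 CPM in members (1 UMI in library 1), against 39.7, 22.9 and 28.5 CPM in cells with none, and its log2 fold change was 0.37 without library 2, not called. Stc2, a secreted glycoprotein hormone induced by oestrogen, stood at 2607, 461 and 1920 CPM in members, against 2188, 1799 and 963 CPM in cells with none; it was lower in members of library 2, higher in those of library 3, and not called.

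Among 8 other paracrine ligands tested, with a median of 0.13 and 2 at an unadjusted edgeR p below 0.05, Wnt5a was the 1 called. Wnt5a, a ligand of non-canonical Wnt signalling, stood at 0, 63.0 and 126 CPM in members and at 201, 279 and 144 CPM in cells with none (log2 fold change -1.34 ± 0.31, adjusted p = 0.0074). It was lower in members of each library, by little in library 3; the log2 fold change was -0.69 without library 2 and -1.18 without library 1, and neither was called. Cxcl14 (0.17 ± 0.33) and Tgfb1 (0.15 ± 0.32) were not called. The 12 Wnt pathway genes, 12 genes of RANK and NF-kB signalling, 4 of CGRP and adrenomedullin reception, 12 lineage transcription factors and 11 hormone and growth factor receptors tested gave 0 calls each, with medians of -0.33, -0.25, -0.34, -0.21 and -0.16. The numbers with an unadjusted edgeR p below 0.05 were 2, 1, 0, 0 and 1. Over all genes tested the share called was 0.555%, at which 0 calls are likely in lists of these sizes, here and below. The 7 peptide-processing and secretory granule genes tested also gave 0 calls, with 2 at an unadjusted edgeR p below 0.05 and a median of -0.43. Pam, the enzyme that amidates calcitonin and CGRP, had a log2 fold change of -0.92 ± 0.30 (adjusted p = 0.234). Each of the remaining lists gave 0 calls: 21 immediate-early and heat-shock genes (median -0.41), 16 luminal surface and secreted genes (-0.38), 17 luminal keratins and junction genes (-0.22), 14 of cholesterol and lipid synthesis (0.06), 13 of calcium and cAMP signalling (-0.08) and 5 D cyclins, kinases and inhibitors (-0.02). Of them 1, 5, 2, 1, 2 and 1 genes had an unadjusted edgeR p below 0.05.

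**Figure D4:**
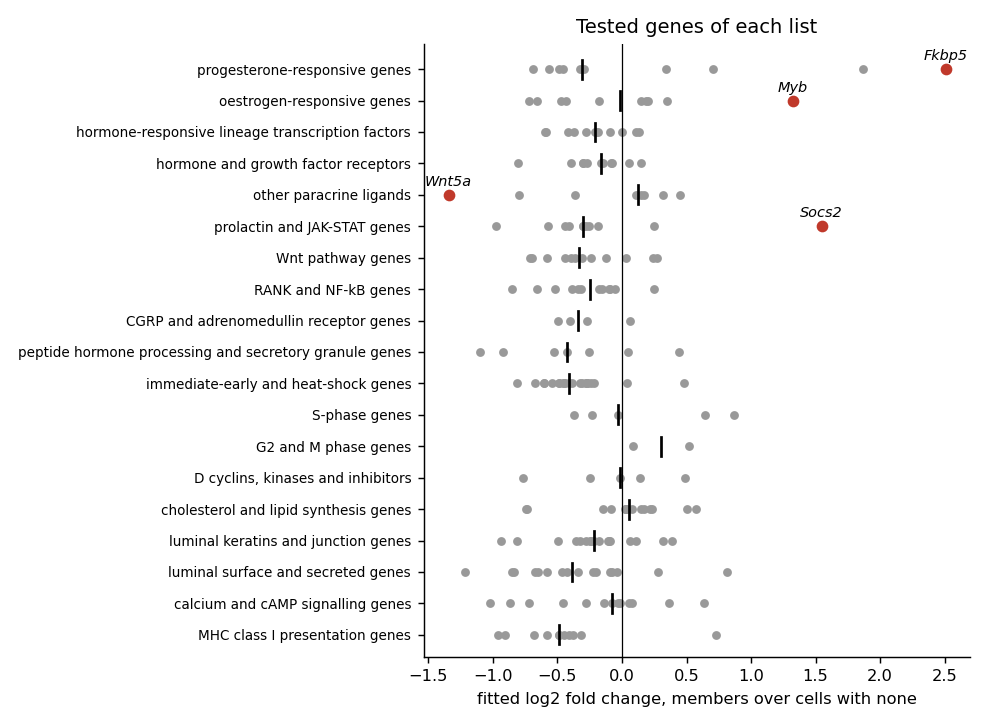
Each point is a tested gene of 1 of the 19 lists, placed by its fitted log2 fold change in members over cells with none; named points were called and grey points were not, and a black bar marks the median of the list. The 4 called genes are Fkbp5, Myb and Socs2, above zero, and Wnt5a, below zero.

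Ly6d and B2m were not called in spite of large differences in library 2. Ly6d, a surface protein of the Ly6 family, stood at 2517, 311 and 1586 CPM in members, against 3561, 1874 and 1565 CPM in cells with none (-1.22 ± 0.35, adjusted p = 0.076). B2m, the light chain of MHC class I, stood at 1528, 3904 and 2312 CPM in members and at 1462, 949 and 1643 CPM in cells with none (0.73 ± 0.34, adjusted p = 0.863). By CPM, B2m was higher in each library, by little in library 1, where it was lower on the TMM scale of the fit. The 10 other MHC class I presentation genes tested had fitted log2 fold changes below 0, among them H2-D1 (-0.49 ± 0.33). The list gave 0 calls among 11 genes, beside 0.555% called over all genes tested. Its median was -0.49, with 4 at an unadjusted edgeR p below 0.05.

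In library 2, the genes given here, chosen after their values were seen, differed between cells with 0 or 1 and cells with 2 or 3 of the 3 genes. Defb1 stood there at 9.28, 22.2, 114 and 225 CPM in cells with 0, 1, 2 and 3 of the genes. Agtr1a stood at 74.9, 82.9, 252 and 539 CPM, and Fkbp5 at 6.81, 11.7, 73.1 and 149 CPM. Cells with 1 gene, most of them with Wnt4 alone, lay nearer to the cells with none than to those with 2 genes. Defb1 and Fkbp5 were already somewhat higher in them, and all 3 levels rose again from 2 to 3 genes. In the downward direction, Col8a1 stood at 555, 482, 240 and 64.0 CPM, Wnt5a at 279, 305, 146 and 20.7 CPM and Ly6d at 1874, 2189, 837 and 43.4 CPM. Wnt5a and Ly6d were higher with 1 gene than with none, and lower with 2 and 3. In library 3, where 8 cells had all 3 genes, Defb1 stood at 14.8, 56.3, 203 and 87.5 CPM and Col8a1 at 486, 446, 129 and 117 CPM, while Wnt5a stayed between 124 and 154 CPM and Ly6d stood at 1565, 1636, 1659 and 816 CPM. Cells with more of the genes were also deeper, and the part of depth in these steps was not tested gene by gene. When comparison cells were matched to members on total UMIs, 20 of the 33 called genes that could be tested were called. All 33 kept their sign, in a fit that uses the same members.

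**Figure D5:**
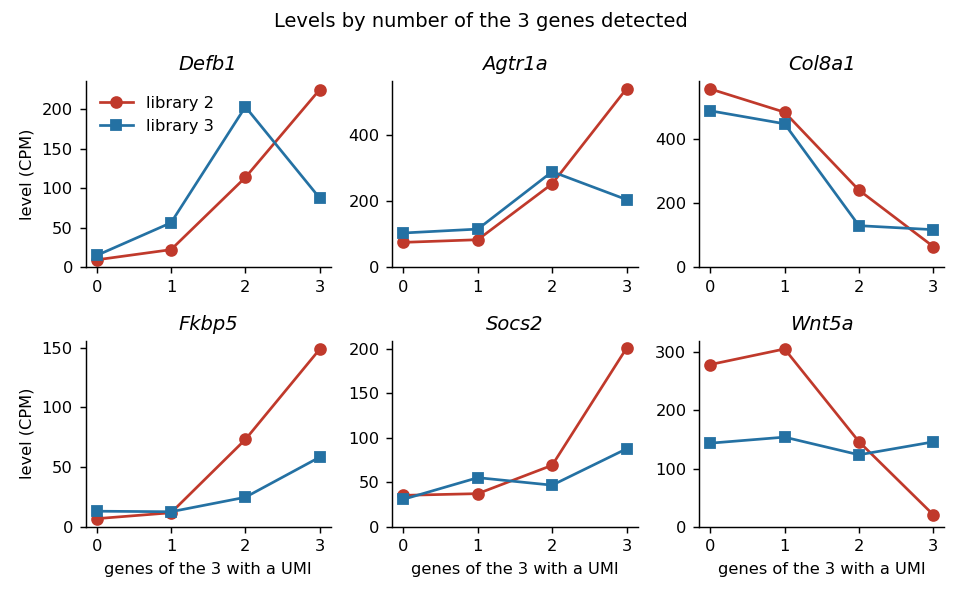
Lines give the level in CPM of 6 genes in hormone-responsive cells with 0, 1, 2 or 3 of Calca, Tnfsf11 and Wnt4 detected, in libraries 2 and 3; the genes were chosen after their values were seen. Defb1, Agtr1a and Col8a1 differ at 2 genes in both libraries, whereas Wnt5a is lower at 2 and 3 genes in library 2 alone.

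Within the members of library 2, those with Tnfsf11 stood apart from those with Calca and Wnt4 only. The 130 members with Tnfsf11 had Ly6d at 127 CPM, against 1003 CPM in the 38 without. Agps stood at 71.1 CPM in members with Tnfsf11 and 404 CPM in those without, Wnt5a at 36.4 and 163 CPM, and Stc2 at 284 and 1127 CPM. In the upward direction B2m stood at 4477 CPM in members with Tnfsf11 and 1752 CPM in those without, and Agtr1a at 504 and 208 CPM. In library 3, the 25 members with Tnfsf11 and the 76 without differed less in these genes, with Ly6d at 1277 and 1698 CPM, Agps at 473 and 441 CPM, Wnt5a at 132 and 123 CPM and B2m at 2516 and 2238 CPM. Defb1 was higher with Tnfsf11 in both libraries, at 201 against 137 CPM in library 2 and at 284 against 161 CPM in library 3. Library 1 had 6 and 1 such cells, so no test was made and these values describe 2 libraries.

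Alpha globin transcripts were frequent in the members of library 2, and less so in those of library 3. A UMI of Hba-a1 or Hba-a2 was present in 4 of 7, 70.2% and 25.7% of members, against 14.9%, 12.2% and 15.3% of cells with none. Thinned to 2000 UMIs, the shares in library 2 were 72.3% and 7.17%. In library 3 they were 24.4% (interval 14.2 to 38.7) and 15.7% (13.0 to 18.9), and the intervals overlap. Hba-a1 stood at 315, 1025 and 115 CPM in members and at 103, 44.6 and 104 CPM in cells with none and was not called (adjusted p = 0.999). Hba-a2 stood at 0, 174 and 22.6 CPM in members and at 18.7, 7.43 and 10.7 CPM in cells with none, and was called. These genes are near-identical copies, and how reads were divided between them is uncertain. The 5 red-cell markers summed to 315, 1205 and 148 CPM in members and to 124, 61.9 and 129 CPM in cells with none, nearly all of it alpha globin: Hbb-bt was at 0 in members of the 3 libraries and Hbb-bs at 0 in those of libraries 1 and 3. In library 2 Hba-a1 also stood at 53.9 CPM in basal and 51.9 CPM in luminal progenitor cells, and the part of free RNA was not tested.

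The receptor of RANKL was found in basal and luminal progenitor cells, while Wnt receptors were divided between the classes. Low levels of these receptors were not particular to members. In cells with none of the 3 genes, mean levels were 0.808 CPM for Tnfrsf11a, 0.602 for Calcrl, 17.6 for Fzd7 and 4.37 for Egfr. Fzd6 had a mean of 61.6 CPM in cells with none and 40.2 CPM in members, and was not called. Tnfrsf11a, the receptor of RANKL, stood at 0, 1.37 and 0 CPM in members, at 32.6, 32.0 and 32.8 CPM in basal cells and at 30.3, 34.7 and 25.4 CPM in luminal progenitor cells. Tnfrsf11b, the decoy receptor osteoprotegerin, stood at 0, 5.48 and 0 CPM in members and at 11.8, 14.7 and 9.16 CPM in basal cells. Calcrl, which forms the CGRP receptor with Ramp1, was at 0 in members, where a count of 0 allows up to 135, 4.11 and 7.53 CPM, and reached no more than 5.57 CPM in luminal progenitor cells. Calcrl was thus low in each class. Ramp1 stood at 0, 5.48 and 17.6 CPM in members, at 26.6, 43.6 and 42.3 CPM in basal cells and at 122, 32.2 and 36.9 CPM in luminal progenitor cells. The Wnt receptor Fzd7 stood at 0, 26.0 and 22.6 CPM in members and at 164, 302 and 237 CPM in basal cells. Fzd6, another Wnt receptor, stood at 45.0, 32.9 and 42.7 CPM in members, at 17.8, 21.0 and 16.8 CPM in basal cells and at 22.4, 23.5 and 23.1 CPM in luminal progenitor cells. The Wnt co-receptors Lrp5 and Lrp6 were present in each class: Lrp5 stood at 45.0, 83.5 and 128 CPM in members and at 66.5, 98.5 and 74.6 CPM in basal cells, and Lrp6 at 135, 58.9 and 65.3 CPM in members and at 94.2, 89.8 and 85.7 CPM in basal cells. Egfr, the receptor of amphiregulin, stood at 0, 4.11 and 5.02 CPM in members and at 65.9, 88.6 and 84.9 CPM in basal cells. Differences between these classes were not tested, since the classes were defined from the same cells.

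Division markers were rare in members and in cells with none, with a UMI of Top2a or Mki67 in 2.90% and 2.84% over the 3 libraries. These sums hide opposite directions. Library 2 had a UMI in 4.76% of members and 1.90% of cells with none, and library 3 in 0% and 3.99%. A UMI of Top2a or Mki67 was present in 0 of 7, 8 of 168 and 0 of 101 members, against 2 of 148, 9 of 474 and 23 of 576 cells with none. A count of 0 in 101 cells allows a share of up to 2.97%, below the 3.99% of the comparison cells of library 3. The difference was not tested. After thinning to 2000 UMIs, 0 of 165 members had one, which allows up to 1.82%, against 1.63% of cells with none (20 of 1224). No difference over the 3 libraries together was detectable at this depth. The 5 S-phase genes and 2 genes of G2 and M phase that could be tested gave 0 calls, beside 0.555% called over all genes tested. Their medians were -0.03 and 0.30, with 1 and 0 at an unadjusted edgeR p below 0.05.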

How the data were processed

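The authors deposited 1 table of raw UMI counts per library, with no normalization per the file headers; the submitters' processing notes name Cell Ranger 2.1.0 and the build mm10, while the annotation and the cell-calling rule were not given in the sources used. Together the 3 tables held 26845 barcodes, 19050 genes and 18584156, 27220670 and 30984706 UMIs, and 0 columns were left unused. Members, lists and tests were chosen with earlier results of these data known. The deposited counts were summed per library over members and over cells with none of the 3 genes. The 6 sums were tested with edgeR 4.0.16 (R 4.3.3; glmQLFit, robust, two-sided, TMM, filterByExpr, library as block, 2 residual degrees of freedom), and Benjamini-Hochberg values were taken over all genes tested. The 16 genes of the rule stayed in the totals and were not tested. A call needs an adjusted p below 0.05 and no minimum fold. Levels are CPM scaled by total counts, fold changes are fitted values, and each SE is the log2 fold change divided by the square root of F. Scripts were tested on simulated data.

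Genes were named by a rule: the 12 called genes with the largest fold change in each direction that had 1 sign in all 3 libraries and a mean of at least 20 CPM in the higher group, and for each of 19 lists up to 4 called members and up to 2 uncalled members of highest mean. Other genes given with values, among them Fam20a, Zbtb16, Cish, Hba-a1 and the receptors of the signals, were chosen after their values were seen. The sign in each library was read from CPM scaled by total counts, not from the TMM scale of the fit. Of 370 listed genes, 362 are in the tables. Doublets were kept in the main analysis; as an alternative, cells of highest Scrublet score (scanpy 1.11.5) were removed at 0.8% per 1000 barcodes, which left 6, 166 and 98 members. Both sums of a library come from the same suspension, which pairs them. As a check, deviations from group means were correlated over 1542 genes: within a library r was 0.57, 0.29 and 0.38, and between libraries 2 and 3 it was 0.40 and 0.43. The other alternatives were DESeq2 1.42.0, no low-count filter, no block, each library left out, thinning to 2000 UMIs, matching on UMIs and other member rules; scaling by total counts and matching without library 1 were added after seeing the data.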

Additional observations from a re-analysis of the deposited data

How the results depend on the processing

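The number of calls moved with most settings. Against 20 genes higher and 18 lower, the DESeq2 Wald test gave 2 and 1, the fit with no replicate block, which drops the pairing by library, 2 and 1, thinning to 2000 UMIs 1 and 1, at least 1 of the 3 genes as the member rule 1 and 2, all 3 genes 38 and 65, and matching on UMIs without library 1 5 and 2. Removing doublets gave 13 higher, and scaling by total counts without TMM 28 lower. Leaving out 1 library gave 3 to 29 higher and 3 to 22 lower, with 7 and 7 without library 1, 3 and 3 without library 2 and 29 and 22 without library 3. Of the 38 genes, 5 were called without library 2 and 16 without library 3. The share of members thinned to 2000 UMIs was 0.351% in library 1 and 4.17% in library 3, and moved by less than its interval in library 2. Of the 38 called genes, 1 changed sign under an alternative: Clip4 had a log2 fold change of 0.075 with at least 1 of the 3 genes. Of the 38 named genes that were not called, 23 changed sign under at least 1 alternative, among them Cxcl14, Stc2 and Tgfb1, so no direction is read for them. The cause of these changes was not tested. The comparison of members with and without Tnfsf11 was not run, nor its alternatives, because its sums in library 1 held 6 and 1 cells. Below 135 CPM, a gene at 0 in the members of library 1 gives no information on its level there.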
